A study of Mus musculus with 24 samples.

Results

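The 6 mature miRNAs described here are the 5p and 3p arms of miR-340, miR-676 and miR-455, 6 of the 1221 mature miRNA names in the deposited count table. In the table they are mmu-miR-340-5p, mmu-miR-340-3p, mmu-miR-676-3p, mmu-miR-676-5p, mmu-miR-455-3p and mmu-miR-455-5p. They were chosen by their measured counts, whose share of all miRNA reads was low in total RNA of fibroblasts pulsed with 4-thiouridine (4SU) compared with total RNA of untreated fibroblasts, and their levels in purified labelled RNA were then followed over the chase. The values of that first contrast are therefore given as a description and support nothing.

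The cells were 3T9, an immortalised line of mouse embryo fibroblasts, grown in DMEM with serum. For the 21 labelled libraries, a pulse of 3 h with 300 µM 4SU was followed by a chase in 1 mM uridine, and the RNA that had taken up 4SU was biotinylated, captured on streptavidin beads and sequenced as small RNA after 0, 2, 4, 6, 8, 10 and 12 h, once in each of 3 experiments that the series calls independent. The other libraries were 1 of total RNA from cells pulsed with 4SU, 1 of total RNA from untreated cells, and 1 negative extraction, in which the same purification was run on RNA of cells without label. The treatment label reads the same for all 24 libraries, and whether the pulsed total RNA was taken before or during a chase is not given in the sources used here.

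A miRNA hairpin is cut by Dicer into a duplex of a 5p and a 3p arm, of which one is usually kept by Argonaute while the other is lost. The seed, the bases next to the 5′ end, pairs with messenger RNAs and so sets the targets. 4SU is a uridine analogue, so RNA made during the pulse carries it, whereas older RNA is washed off the beads, and over the chase the labelled pool ages. miR-455 lies in an intron of Col27a1, a fibrillar collagen gene, and is known from cartilage, miR-340 lies in an intron of Rnf130, which codes for a RING finger protein, and miR-676 lies in an intron of Eda, the gene of the tumour necrosis factor family ligand ectodysplasin. All 3 hairpins have the strand of their host (GENCODE vM21).

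The mature sequences are shown because each arm was counted on its own and because only their uridines can carry the label. They were taken from RefSeq on GRCm38.p6, 5′ to 3′, with the seed (bases 2 to 8) in capitals, and 5 of the 6 names matched; miR-676-5p is named only.
miR-340-5p: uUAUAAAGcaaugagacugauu
miR-340-3p: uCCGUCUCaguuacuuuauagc
miR-676-3p: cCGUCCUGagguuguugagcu
miR-455-3p: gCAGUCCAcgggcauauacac
miR-455-5p: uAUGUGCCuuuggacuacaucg
All lie on the plus strand, at chr11:50069720-50069741 (miR-340-5p), chr11:50069762-50069783 (miR-340-3p), chrX:100381151-100381171 (miR-676-3p), chr4:63256904-63256924 (miR-455-3p) and chr4:63256867-63256888 (miR-455-5p). The 5 seeds differ from one another; that of miR-676-5p was not compared. Of all counted miRNAs with a sequence, 1 other name held one of these seeds, miR-5129-3p with that of miR-455-5p, and it was close to the detection limit, at a mean of 0.168 CPM in labelled RNA, 0.221 CPM in pulsed total RNA and 0.156 CPM in untreated total RNA. Here CPM is a miRNA's count scaled to 1000000 miRNA counts of the library.

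The hairpins of miR-340 and miR-676 are printed with the mature sequences given above in capitals. Mir340 thus shows both arms, while in Mir676 only the 3p arm is marked and the 5p arm stays in lower case. The hairpin of miR-455 was not at hand. The miR-340 hairpin spans 98 bases at chr11:50069702-50069799 and the miR-676 hairpin 89 bases at chrX:100381097-100381185, both on the plus strand of GRCm38.p6.
Mir340: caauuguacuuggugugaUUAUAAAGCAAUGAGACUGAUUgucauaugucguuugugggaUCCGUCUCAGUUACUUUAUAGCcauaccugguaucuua
Mir676: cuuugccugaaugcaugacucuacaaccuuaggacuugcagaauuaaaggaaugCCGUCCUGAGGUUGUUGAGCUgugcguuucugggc
Of the arms of Mir340, miR-340-5p holds 7 uridines and miR-340-3p holds 9. miR-676-3p holds 7, miR-455-5p holds 8 and miR-455-3p holds 3. Over the 1037 counted miRNAs with a RefSeq sequence the median was 6 uridines (quartiles 4 and 7). The 15 miRNAs with a sequence that were at least 2-fold lower in pulsed than in untreated total RNA also had a median of 6, as did the 281 miRNAs with a sequence and a mean of at least 5 CPM over the pair of libraries. miR-455-3p was thus below the lower quartile, and the other 4 members with a sequence were at or above the upper quartile.

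The libraries held 1133048 to 7886484 miRNA counts in labelled RNA, 4525638 in pulsed total RNA, 6412428 in untreated total RNA and 283922 in the negative extraction. A count of 0 allows up to 3 counts, or 0.380 to 2.65 CPM in labelled RNA, 0.663 and 0.468 CPM in pulsed and untreated total RNA, and 10.6 CPM in the negative extraction; such limits and the intervals below cover counting error only. The 8 fibroblast markers summed to 147155 to 239906 CPM in labelled RNA, 367253 CPM in pulsed and 423674 CPM in untreated total RNA, while the 5 blood markers stayed at or under 6.87 CPM in each of these libraries and the 3 muscle markers summed to 1.77 to 22.1 CPM in labelled RNA, 9.94 CPM in pulsed and 3.27 CPM in untreated total RNA. Of these 3, miR-1a-3p was at 0 in every labelled library, while miR-206-3p was at 1.14 to 21.7 CPM, as high as several members. The 2 counted neural markers summed to 240 to 516 CPM in labelled RNA. Their sum was 340 CPM in pulsed and 347 CPM in untreated total RNA. Nearly all of the labelled sum was miR-128-3p, at 234 to 511 CPM. The liver marker stayed at or under 2.04 CPM and the 2 counted embryonic stem cell markers at or under 0.692 CPM in each of these libraries. The part of other cell types in the labelled values was not tested. An unexplained code stands under each library name in the table: each experiment has one, that of experiment 1 also belongs to the negative extraction, and the pair of total RNA libraries shares another. Whatever the code stands for, its part in a difference between experiments, or between labelled and total RNA, cannot be told apart from that of the groups. The fewest counts of any labelled library were in experiment 2 at 12 h, and several member values below rest on it.

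In total RNA all 6 members were lower in the pulsed than in the untreated library, by about 3- to 6-fold, with both arms of each hairpin moving the same way. These are the values by which the members were chosen, from 1 library each, so they have no replicate check and no test. Brackets give the exact 95% binomial interval of the ratio.

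miR-340-5p, the more abundant arm of its hairpin, had 37 counts (8.18 CPM) in pulsed and 336 counts (52.4 CPM) in untreated total RNA, a ratio of 0.156 (0.108 to 0.219). Its partner miR-340-3p had 4 counts (0.884 CPM) in pulsed and 33 counts (5.15 CPM) in untreated total RNA, a ratio of 0.172 (0.0442 to 0.483). The intervals of both arms overlap, so no difference between the arms was detectable at this depth.

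miR-676-3p had 53 counts (11.7 CPM) in pulsed and 342 counts (53.3 CPM) in untreated total RNA, a ratio of 0.220 (0.161 to 0.294). The other arm, miR-676-5p, had 7 counts (1.55 CPM) in pulsed and 39 counts (6.08 CPM) in untreated total RNA, a ratio of 0.254 (0.0960 to 0.575). The upper bound for miR-676-5p is the only one of the 6 above a 2-fold fall.

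miR-455-3p had 10 counts (2.21 CPM) in pulsed and 71 counts (11.1 CPM) in untreated total RNA, a ratio of 0.200 (0.0918 to 0.389). miR-455-5p had 46 counts (10.2 CPM) in pulsed and 201 counts (31.3 CPM) in untreated total RNA, a ratio of 0.324 (0.230 to 0.449). In both total RNA libraries miR-455-5p was thus the more abundant arm.

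On the log2(CPM + 1) scale the differences, pulsed minus untreated, were -2.54 for miR-340-5p, -1.71 for miR-340-3p, -2.10 for miR-676-3p, -1.48 for miR-676-5p, -1.91 for miR-455-3p and -1.53 for miR-455-5p. Among the 337 miRNAs with a mean of at least 5 CPM, 17 were at least 2-fold lower on this scale (5.04%), 40 were at least 2-fold higher (11.9%), and the median was 0.37, or 0.09 once TMM factors were applied. miR-340-3p and miR-676-5p were under that mean; the other 4 members passed it and took ranks 1 (miR-340-5p), 4 (miR-676-3p), 5 (miR-455-3p) and 9 (miR-455-5p) from the lowest. The count of members past a 2-fold fall is fixed by how they were chosen.

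None of the members reached a mean of 50 CPM in total RNA. Above that level the lowest log2 ratios belonged to miR-205-5p, an epithelial miRNA, with 30.9 CPM in pulsed and 182 CPM in untreated total RNA (-2.52), to miR-146b-5p, with 274 CPM in pulsed and 1277 CPM in untreated total RNA (-2.22), and to miR-335-5p, with 152 CPM in pulsed and 456 CPM in untreated total RNA (-1.58). The 6 epithelial markers together, most of whose reads were miR-205-5p, summed to 33.1 CPM in pulsed and 186 CPM in untreated total RNA. Of the others, miR-200a-3p was at 0 in both, and miR-203-3p was at 0.221 CPM in pulsed and 2.81 CPM in untreated total RNA. miR-141-3p was at 1.10 CPM in pulsed and 1.56 CPM in untreated total RNA, and miR-200c-3p at 0 and 0.156 CPM. miR-200b-3p went the other way, at 0.884 CPM in pulsed and 0 in untreated total RNA. In labelled RNA the list summed to 201 to 1151 CPM, and miR-205-5p alone ran from 198 to 1150 CPM. The part of other cell types in the low values of the members was not tested. In bulk RNA, fewer cells of a type and less RNA per cell cannot be told apart.

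**Figure D1:**
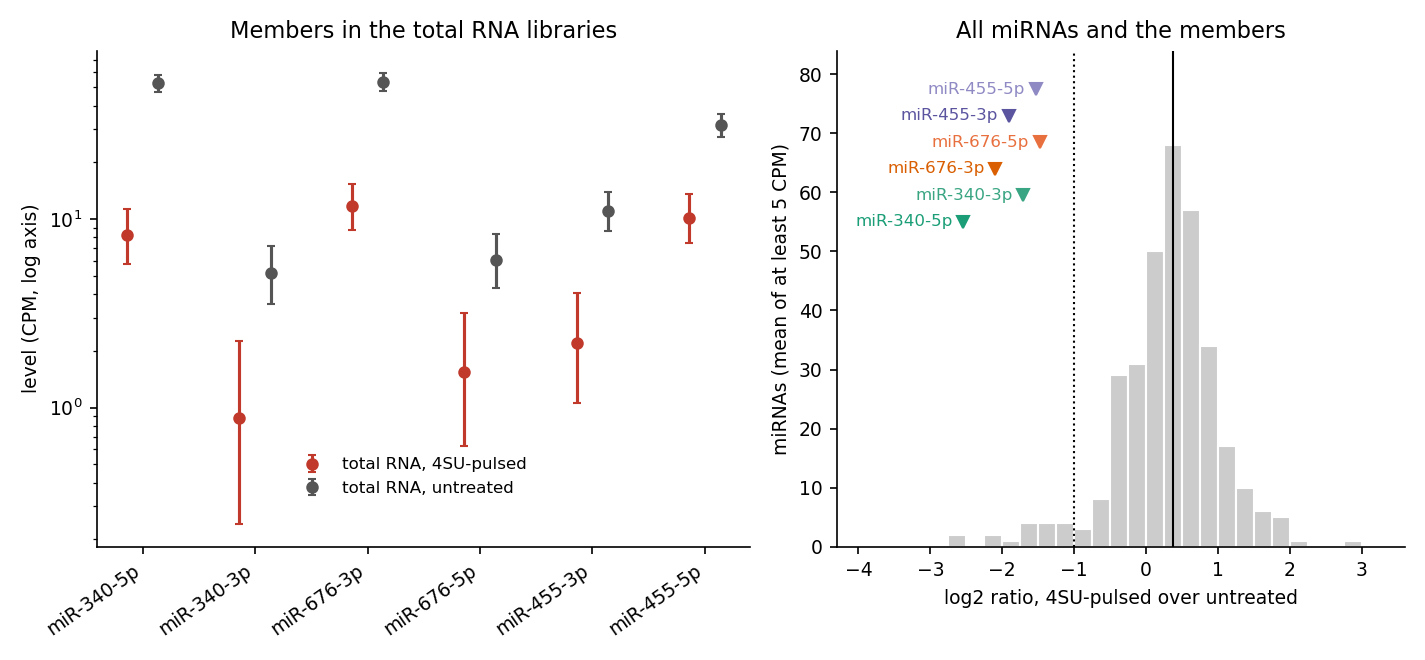
Left, level of each member in CPM (log axis) in total RNA of 4SU-pulsed cells (red) and of untreated cells (grey), 1 library each, with exact 95% binomial intervals; right, distribution of the log2 ratio over the 337 miRNAs with a mean of at least 5 CPM (median 0.37, solid line; 2-fold fall, dotted line) with the members as triangles, whose height has no meaning. Every member lies left of the dotted line, which is how they were chosen, and miR-340-5p lies farthest left, at -2.54.

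The purified labelled RNA was not used to choose the members in the first contrast, and there they parted. The total RNA libraries it is set beside here were used to choose them. A labelled value above the pulsed or below the untreated library is favoured by that choice, so these comparisons are descriptions. miR-676-3p and miR-455-3p were at higher levels in nearly all labelled libraries than in either total RNA library, miR-340-5p lay mostly between the pulsed and the untreated library, and miR-455-5p was below both in all 21.

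miR-676-3p was the most abundant member in labelled RNA, at 81.5 to 189 CPM with a median of 117 CPM. It was above both total RNA libraries in 21 of 21 labelled libraries. miR-676-5p ran from 2.65 to 13.0 CPM (median 8.20), above the pulsed library in 21 and above the untreated library in 18 of 21. Both arms of miR-676 were therefore higher in labelled RNA than in untreated total RNA in most libraries.

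miR-455-3p ran from 7.06 to 104 CPM with a median of 36.9 CPM, above pulsed total RNA in 21 and above untreated total RNA in 19 of 21 labelled libraries. miR-455-5p, the arm from the same hairpin, ran from 1.27 to 9.79 CPM with a median of 3.84 CPM and exceeded neither total RNA library in any labelled library. The 2 arms of 1 hairpin thus stood on opposite sides of the total RNA level.

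For miR-340-5p the labelled range was 3.07 to 20.9 CPM with a median of 10.6 CPM, above the pulsed library in 15 and above the untreated library in 0 of 21. miR-340-3p ran from 0.883 to 6.74 CPM (median 3.78), above the pulsed library in 20 and above the untreated library in 2 of 21. Both arms were thus below untreated total RNA in most labelled libraries. In the negative extraction miR-676-3p had 4 counts (14.1 CPM), miR-340-5p had 2 counts (7.04 CPM) and the other 4 members had 0 counts, which allows up to 10.6 CPM each. For these 0 counts the exact 95% interval ends at 13.0 CPM. That of miR-676-3p ends at 36.1 CPM, below its lowest labelled value of 81.5 CPM. The labelled median of miR-455-3p (36.9 CPM) was above 13.0 CPM, but its values in experiment 2 at 10 and 12 h (7.44 and 7.06 CPM) were under 10.6 CPM. The interval of miR-340-5p ends at 25.4 CPM, above all its labelled values, and the labelled medians of miR-340-3p, miR-676-5p and miR-455-5p were under 10.6 CPM. A CPM in the negative extraction is a share of that library's own counts, not an amount of RNA carried over. The counts do not show how much RNA each purification recovered. How much of the labelled signal of any member, miR-676-3p included, is purification background therefore cannot be told from these values.

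Because labelling acts on uridines, the labelled 0 h libraries were set beside untreated total RNA for miRNAs with the same number of uridines. On the log2(CPM + 1) scale, miR-340-5p was at -1.67 (labelled 0 h minus untreated), and 60 of the 63 miRNAs with 7 uridines were higher; their median was 0.24. miR-676-3p, also with 7 uridines, was at 1.22, and 6 of the same 63 were higher. At an equal number of uridines these members lay at opposite ends.

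miR-455-3p was at 1.46, with 1 of the 17 miRNAs with 3 uridines higher (median 0.53), and miR-455-5p was at -2.82, with 35 of the 38 with 8 uridines higher (median 0.32). The arm with fewer uridines was thus the one with the higher share in labelled RNA. miR-340-3p was at -0.57, with 21 of the 29 with 9 uridines higher (median 0.61), and miR-676-5p, with no sequence at hand, was at 0.55. Over the 346 miRNAs compared the median was 0.26. These ratios share the untreated library with the contrast that chose the members, and they compare libraries with different header codes, so they are descriptions.

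The chase asks how a miRNA's share of the labelled pool changes as that pool ages. miR-455-5p rose over the chase, and no slope of the other 5 members passed the test. It averaged 3.59 ± 2.38 CPM at 0 h, 3.65 ± 2.05 at 2 h, 2.97 ± 1.47 at 4 h, 5.02 ± 1.77 at 6 h, 7.24 ± 3.28 at 8 h, 6.18 ± 3.40 at 10 h and 6.69 ± 3.03 at 12 h (SD, n = 3 each). A CPM is relative to all miRNAs of the library, so a rise in it means a larger share of the library, not more molecules. For miR-455-5p the exact 95% interval in the negative extraction ends at 13.0 CPM, above all its labelled values. Each CPM is a share of its own library, so this interval does not measure the background in labelled RNA. The part of purification background in the rise of miR-455-5p was not tested.

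In experiment 1 miR-455-5p was at 3.36, 3.55, 3.84, 5.47, 9.34, 9.79 and 3.66 CPM at 0, 2, 4, 6, 8, 10 and 12 h. In experiment 2 it was at 1.32, 1.64, 1.27, 3.07, 3.45, 5.72 and 9.71 CPM at the same times. In experiment 3 it was at 6.07, 5.75, 3.81, 6.51, 8.93, 3.04 and 6.71 CPM. The time points overlapped between experiments, experiment 2 had its highest value last, experiment 1 dropped back at 12 h, and experiment 3 had no steady course.

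The slope of miR-455-5p was 0.11 ± 0.0364 log2 units per h (SE; 21 libraries), with an adjusted p of 0.0476 (edgeR quasi-likelihood test, Benjamini-Hochberg over 414 miRNAs). It was the 1 of 6 members called, against 12.3% of all 414 miRNAs tested (5.07% upward and 7.25% downward). Upward calls were 21 of 51 with TMM scaling, 10 of 57 with library totals alone and 39 of 63 with upper-quartile scaling; miR-455-5p kept its sign under all 3 and was past the threshold with TMM and upper-quartile scaling (adjusted p = 0.0255) but not with library totals alone (0.112). With the experiment as a block the slope was 0.11 ± 0.0320 and the adjusted p 0.00709, in a fit that called 31.9% of the miRNAs (15.2% upward and 16.7% downward). Fitted one experiment at a time, the slope was 0.12 ± 0.0447 in experiment 1 (adjusted p = 0.0902, edgeR), 0.26 ± 0.0780 in experiment 2 (adjusted p = 0.0506) and 0.03 ± 0.0413 in experiment 3 (adjusted p = 0.646). The sign was upward in all 3, but the counts behind it were low, from 2 to 51 per library, and the unblocked call was lost with experiment 1 left out (adjusted p = 0.213) and with experiment 2 left out (adjusted p = 0.166); with the block these were 0.0663 and 0.0734.

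miR-340-5p, which is reported in several tumour types to restrain growth, fell in experiments 1 and 3 and not in experiment 2. In experiment 1 it was at 20.9, 15.0, 16.8, 11.6, 11.9, 10.6 and 6.70 CPM at 0, 2, 4, 6, 8, 10 and 12 h. In experiment 2 it was at 8.94, 6.15, 9.56, 3.07, 9.49, 6.29 and 19.4 CPM, and in experiment 3 at 17.3, 15.0, 17.0, 11.1, 5.15, 9.79 and 5.53 CPM. The 12 h value is the lowest of the 7 in experiment 1, the highest in experiment 2 and the second lowest in experiment 3. That 19.4 CPM in experiment 2 rests on 22 counts (95% interval 12.2 to 29.4 CPM) in the shallowest labelled library.

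Over all 21 libraries the slope of miR-340-5p was -0.05 ± 0.0307 log2 units per h (adjusted p = 0.384, edgeR), and -0.05 ± 0.0270 with the experiment as a block (adjusted p = 0.134). Within experiments it was -0.10 ± 0.0223 in experiment 1 (adjusted p = 0.0126), 0.09 ± 0.0582 in experiment 2 (adjusted p = 0.453) and -0.10 ± 0.0341 in experiment 3 (adjusted p = 0.0358). The share of all tested miRNAs called in these fits of single experiments was not counted. Without experiment 2 the slope was -0.10 with an adjusted p of 0.00392, or 0.000812 with the block. A test of the difference in slope between experiments, added after these values were seen, gave miR-340-5p an unadjusted p of 0.00604 and an adjusted p of 0.150 (edgeR), so a difference between experiments did not pass, in a test that called 2.42% of miRNAs.

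miR-340-3p averaged 3.15 ± 0.697 CPM at 0 h, 5.12 ± 1.48 CPM at 6 h, its highest mean, and 3.13 ± 1.97 CPM at 12 h (SD, n = 3 each). Its slope was 0.03 ± 0.0287 log2 units per h (adjusted p = 0.622, edgeR). Within experiments it was 0.06 ± 0.0373 in experiment 1 (adjusted p = 0.295, edgeR), -0.08 ± 0.0879 in experiment 2 (adjusted p = 0.716) and 0.07 ± 0.0417 in experiment 3 (adjusted p = 0.251). Each arm of miR-340 thus had the sign of its slope in experiment 2 opposite to that in the other experiments. For miR-340-3p none of these slopes passed, and its 12 h value in experiment 2 rests on 1 count.

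miR-676-3p differed more between experiments than over time. In experiment 1 it was at 121, 115, 99.9, 93.3, 95.6, 119 and 105 CPM at 0, 2, 4, 6, 8, 10 and 12 h. In experiment 2 it was at 175, 189, 162, 158, 132, 140.1 and 154 CPM, and in experiment 3 at 81.5, 98.4, 118, 95.4, 117, 111 and 110.1 CPM. Experiment 2 was the highest at every time point, and the time points overlapped one another.

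The slope of miR-676-3p was 0.01 ± 0.0215 log2 units per h (adjusted p = 0.846, edgeR), and the adjusted p was 0.381 with the block. Within experiment 3 alone it was 0.05 ± 0.0183 (adjusted p = 0.0392), against 0.01 in experiment 1 and -0.01 in experiment 2, and the test of the difference between experiments gave an adjusted p of 0.327. How many of all tested miRNAs the fit of experiment 3 alone called was not counted. For miR-676-5p, at 9.39 ± 1.98 CPM at 0 h, 11.0 ± 1.93 CPM at 6 h and 5.23 ± 2.64 CPM at 12 h, the slope was -0.01 ± 0.0264 (adjusted p = 0.911).

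miR-455-3p, for which the time course also followed the experiment, was at 28.7, 46.7, 26.7, 38.7, 48.9, 24.2 and 36.9 CPM in experiment 1 at 0, 2, 4, 6, 8, 10 and 12 h. In experiment 2 it was at 18.2, 16.8, 17.2, 13.8, 14.2, 7.44 and 7.06 CPM, and in experiment 3 at 49.6, 64.2, 49.5, 104, 74.9, 65.1 and 57.2 CPM. Experiment 3 was above experiment 1 and experiment 1 above experiment 2 at every time point. Its slope was 0.02 ± 0.0507 log2 units per h (adjusted p = 0.852, edgeR), made of 0.02 in experiment 1, -0.09 in experiment 2 and 0.05 in experiment 3.

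**Figure D2:**
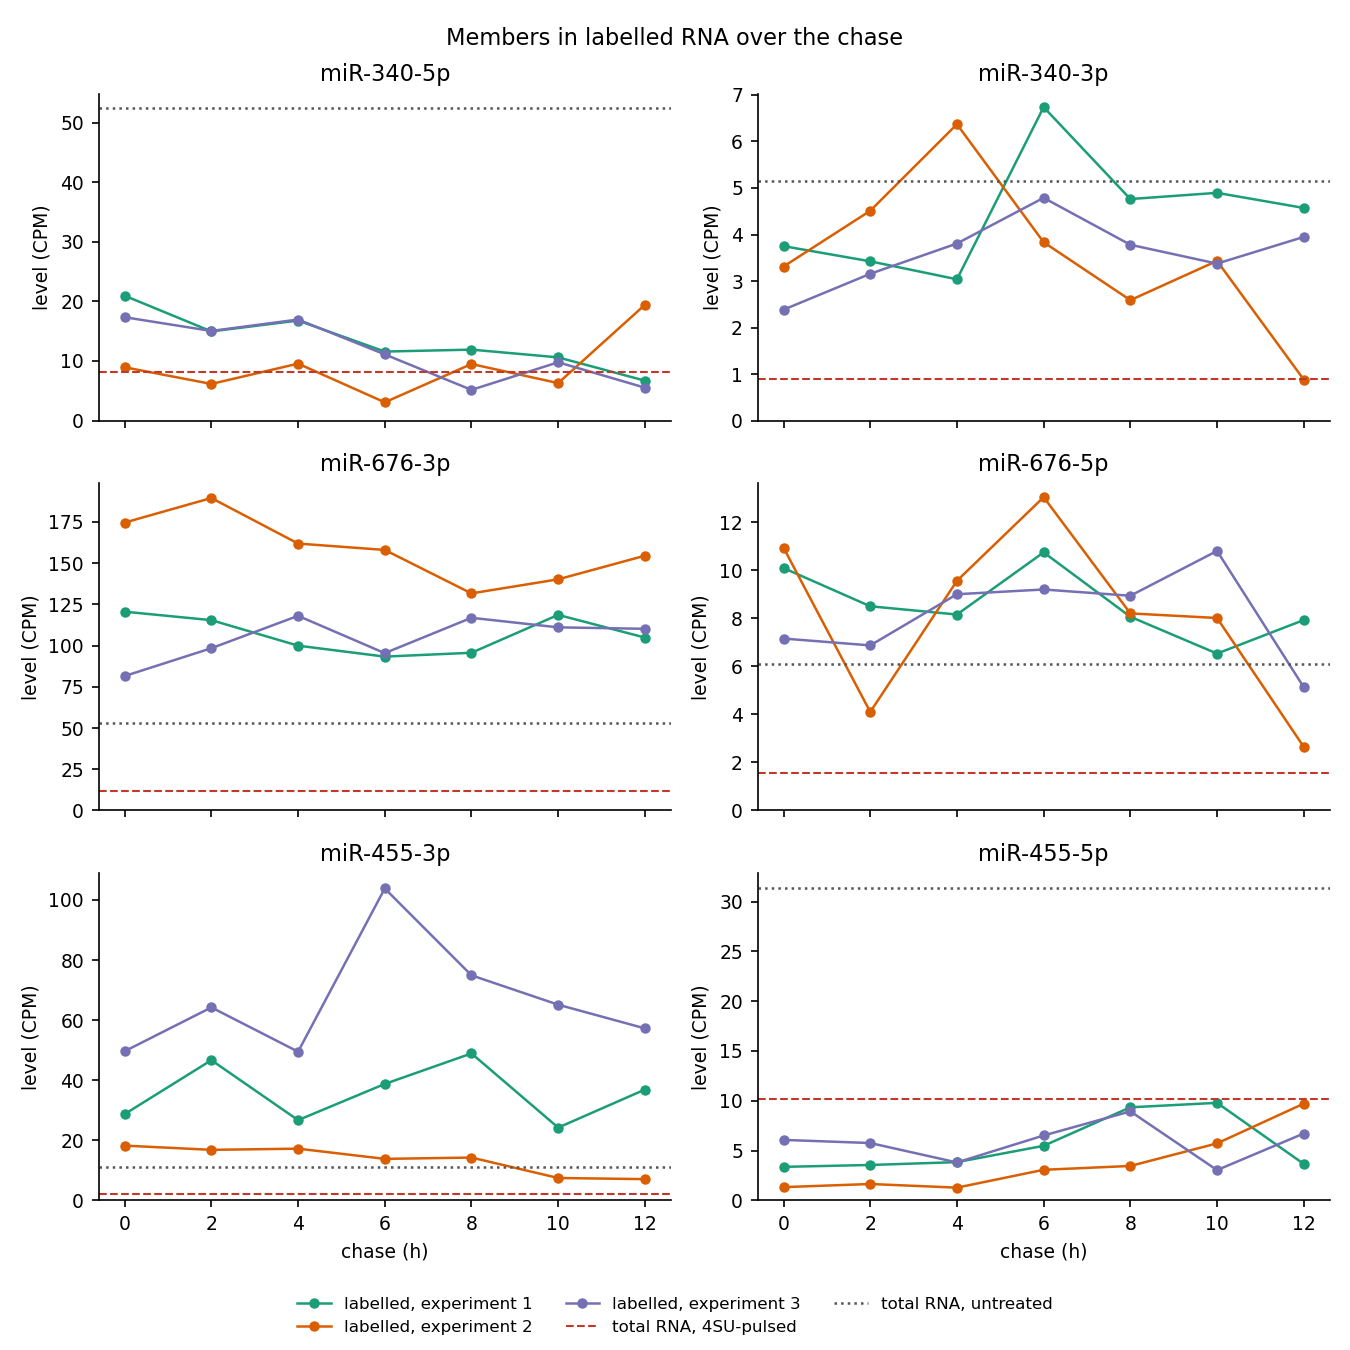
Level of each member in CPM (linear axis from 0) against hours of chase, 1 line for each of the 3 experiments and 1 point for each labelled library; the dashed red and dotted grey lines mark total RNA of pulsed and of untreated cells. Experiment 2 is highest for miR-676-3p and experiment 3 for miR-455-3p at every time point, miR-455-5p stays below both total RNA lines, and miR-340-5p jumps to 19.4 CPM at 12 h in experiment 2.

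The end points alone, 12 h against 0 h, called no member. miR-455-5p was 2.10-fold higher at 12 h (log2 1.07 ± 0.594, adjusted p = 0.470, edgeR; 0.172 with the block). Its 12 h values, 3.66, 9.71 and 6.71 CPM, overlapped those at 0 h, 3.36, 1.32 and 6.07 CPM, although within each experiment the 12 h value was the higher. miR-340-5p was at log2 -0.40 ± 0.509 (adjusted p = 0.863; 0.460 with the block), and at -1.41 without experiment 2 (adjusted p = 0.0380).

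The other log2 differences, 12 h minus 0 h, were 0.34 for miR-340-3p, 0.22 for miR-676-3p, -0.54 for miR-676-5p and 0.33 for miR-455-3p, with adjusted p of 0.596 to 0.921. The lowest unadjusted p of the 6 was 0.0885 (miR-455-5p, edgeR). The lowest adjusted p, also of miR-455-5p, was 0.412 with DESeq2 and 0.471 with limma-voom. The edgeR test with adjusted p called 1.21% of the 414 miRNAs, and 21.7% with the experiment as a block, in which 0 of the 6 were called as well.

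The arms of the 3 hairpins were compared within each library, so that scaling between libraries enters only through the 1 CPM added to each. In total RNA, miR-340-5p, miR-676-3p and miR-455-5p were the more abundant arms. In labelled RNA this held for miR-676 in 21 of 21 libraries and for miR-340 in 20 of 21, the exception being experiment 2 at 6 h with 3.83 CPM of the 3p and 3.07 CPM of the 5p arm. For miR-455 it was turned round in 20 of 21.

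The log2 ratio of miR-455-3p to miR-455-5p (CPM + 1) was 2.89 ± 0.145 in the 3 labelled libraries at 0 h (2.77 to 3.05), against -1.80 in pulsed and -1.42 in untreated total RNA. It was above 0 in 20 of 21 labelled libraries, from -0.41 to 4.03, and the library below 0 was that of experiment 2 at 12 h, with 8 counts of miR-455-3p and 11 of miR-455-5p. Of 100 hairpins with the same major arm in both total RNA libraries, 7 (7%) had the minor arm on top in all 3 labelled 0 h libraries: miR-106b, miR-18a, miR-1981, miR-296, miR-345, miR-455 and miR-708. In 4 of the 100 (4%) it was on top in all 21 labelled libraries, and miR-455 is not among these because of that 1 library. miR-455 is therefore 1 of a small group in this respect, and the part of the header code, which differs between labelled and total RNA, cannot be told apart.

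Over the chase the miR-455 arm ratio had a slope of -0.11 log2 units per h, toward miR-455-5p, with a permutation p of 0.0167 (two-sided, 100000 permutations of time points within experiments) and an adjusted p of 0.0568 over 102 hairpins, which does not pass. The slope was -0.07 in experiment 1, -0.29 in experiment 2 and 0.02 in experiment 3. Of the 102 hairpins 24.5% passed, 19.6% with the minor arm falling and 4.9% with it rising, and 0 of the 3 hairpins described here did.

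For miR-340 the log2 ratio of the 3p to the 5p arm was -1.95 ± 0.656 in labelled RNA at 0 h, against -2.28 in pulsed and -3.12 in untreated total RNA. The slope was 0.05 (permutation p = 0.334, adjusted p = 0.454), with 0.14 in experiment 1, -0.15 in experiment 2 and 0.16 in experiment 3. Without experiment 2 it had an adjusted permutation p of 0.00298. For miR-676 the ratio of the 5p to the 3p arm was -3.56 ± 0.285 at 0 h, against -2.32 in pulsed and -2.94 in untreated total RNA, and the slope was -0.03 (adjusted permutation p = 0.445). Of the 3 hairpins, only miR-455 changed which arm led between total and 0 h labelled RNA.

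**Figure D3:**
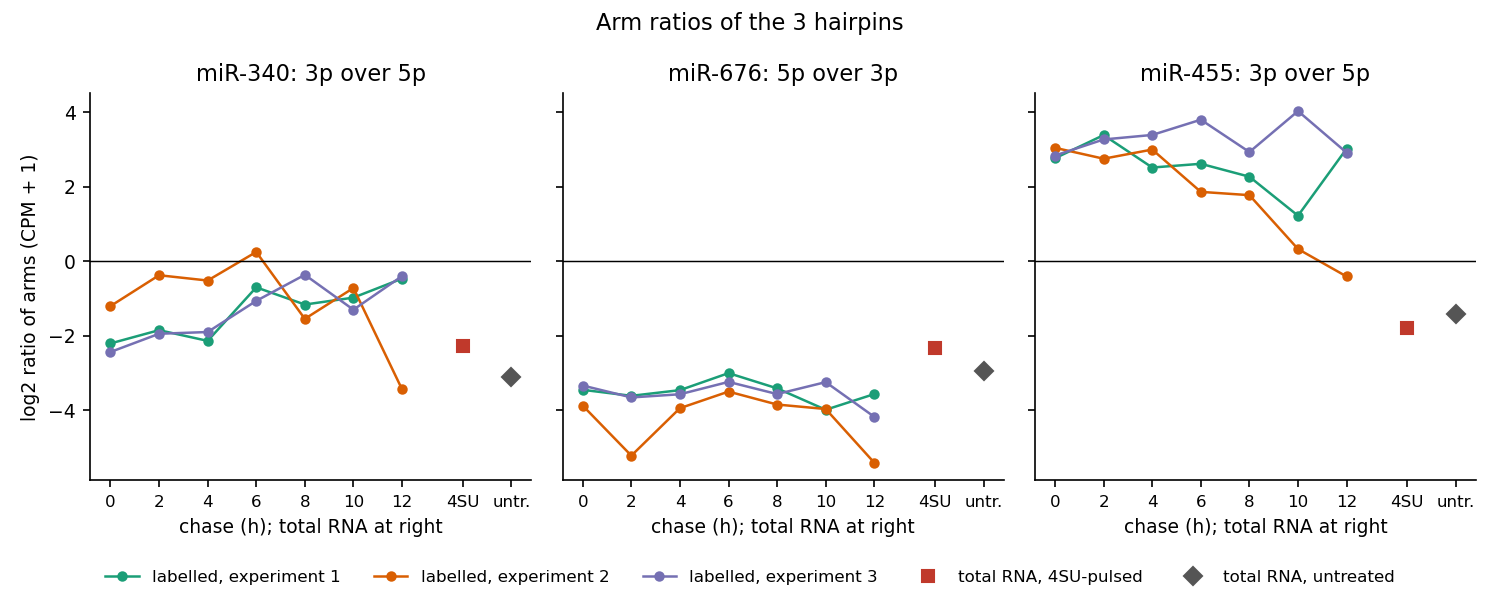
Log2 ratio of the arm that is minor in total RNA to the major arm (CPM + 1) against hours of chase for the 3 hairpins, 1 line per experiment, with pulsed (red square) and untreated (grey diamond) total RNA at the right; above the line at 0 the minor arm leads. miR-455 starts at 2.77 to 3.05 in labelled RNA, against -1.80 and -1.42 in total RNA, and crosses 0 once, in experiment 2 at 12 h.

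The deposited table also splits each miRNA by the form of its ends, which shows what kind of molecule each member was. The arms of each hairpin differed in form. Summed over the labelled libraries, miR-340-5p was 77.8% canonical sequence and 18.7% trimmed forms, whereas miR-340-3p was 9.35% canonical and 77.1% templated 3′ extensions, that is, longer at the 3′ end by bases of the genome. For templated 3′ extension miR-340-3p ranked 31 of the 414 tested miRNAs, whose median was 3.84%.

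miR-676-3p was 58.4% canonical, 14.0% trimmed and 10.4% extended by templated bases, and 17.2% carried non-templated 3′ bases, with the A form at 5.80% and the U form at 5.79%. The median share of non-templated 3′ forms over the 414 was 7.78%. miR-676-5p was 27.4% canonical and 66.6% templated 3′ extensions (rank 40). miR-455-5p was 55.2% canonical and 38.1% templated 3′ extensions. Extension by templated bases was thus the leading form of miR-340-3p and miR-676-5p, the minor arms of their hairpins in total RNA.

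miR-455-3p differed from the other members in form, with 6.68% canonical, 30.1% templated 3′ extensions, 4.87% templated 5′ forms and 55.8% non-templated 3′ forms. Nearly all of the last were the form with an added C, 49.3% of its counts, the highest share of that form among the 414 miRNAs tested, where the median was 0.00309% and 4 reached 10%. The reference sequence printed above ends in a C, and the rule by which the table names a base non-templated is not given in the sources used here.

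The added-C form of miR-455-3p was 45.8% ± 4.17 of its counts in labelled RNA at 0 h (SD, n = 3). In pulsed total RNA it was 4 of 10 counts (40.0%, exact 95% interval 12.2 to 73.8%) and in untreated total RNA 27 of 71 (38.0%, 26.8 to 50.3%). It made up 33.7 to 58.7% in the 7 libraries of experiment 1, 50.7 to 60.4% in those of experiment 3 and 0 to 63.6% in those of experiment 2. The form was thus found in labelled and in both total RNA libraries, and the intervals of the total RNA libraries include the labelled 0 h mean. The 0% was the 12 h library of experiment 2, with 0 of 8 counts, where the next lowest library of that experiment had 29.6%.

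**Figure D4:**
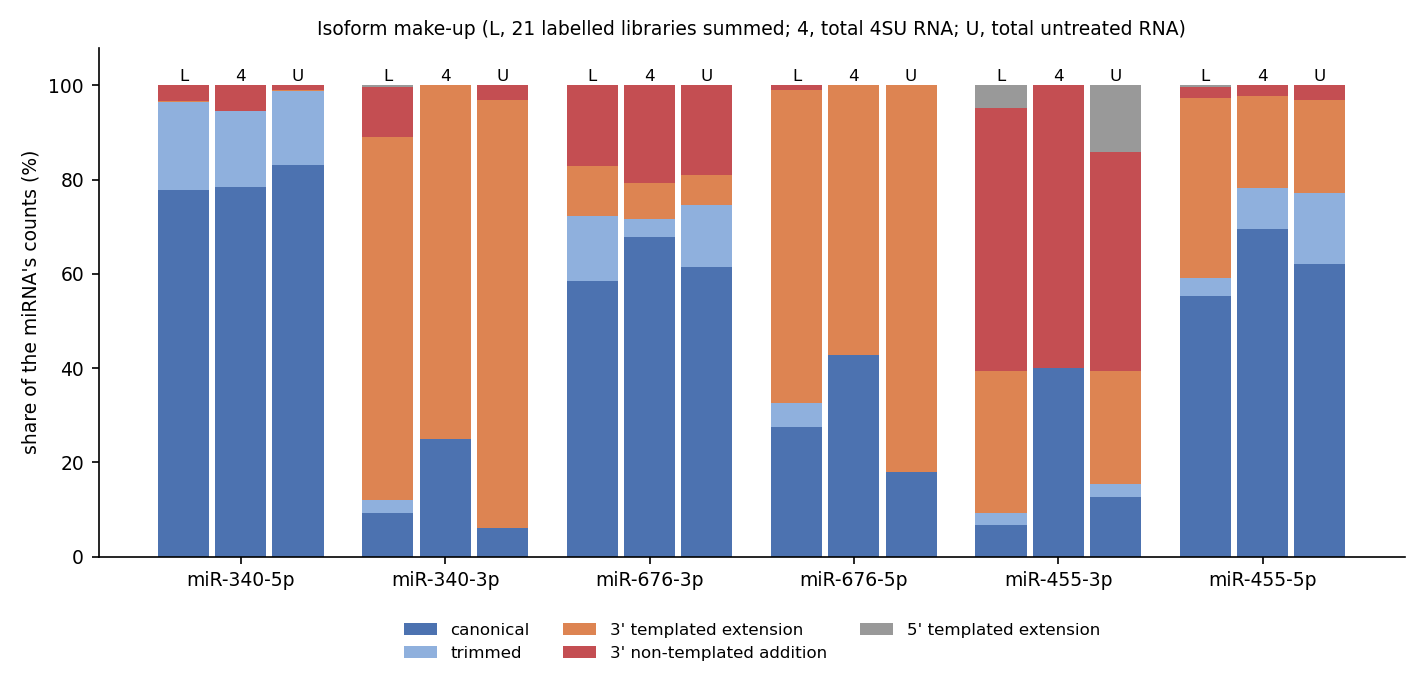
Share of each member's counts (percent) by form of the sequence, summed over the labelled libraries and in the 2 total RNA libraries. Canonical sequence leads in miR-340-5p (77.8% in labelled RNA), templated 3′ extension in miR-340-3p (77.1%) and miR-676-5p (66.6%), and non-templated 3′ forms in miR-455-3p (55.8%).

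To see which miRNAs ran most like each member, log2(CPM + 1) was correlated over the 21 labelled libraries, which come from 3 experiments and differ in depth, so the values are descriptions. miR-676-3p was most like miR-423-5p (Pearson r = 0.944), let-7e-5p (0.923) and miR-92b-3p (0.871). miR-455-3p was most like miR-350-3p (0.883), miR-15b-3p (0.855) and miR-7a-5p (0.854). miR-455-5p was most like miR-20a-5p (0.695), miR-98-3p (0.679) and miR-365-3p (0.642).

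miR-340-5p was most like miR-872-3p (0.694), miR-297a-5p (0.687) and miR-669a-3p (0.658), miR-340-3p most like miR-7117-3p (0.782), miR-3060-3p (0.696) and miR-125a-5p (0.652), and miR-676-5p most like miR-34b-3p (0.629), miR-503-5p (0.600) and miR-101a-3p (0.598). The members themselves were left out of these searches. Between members the values ran from -0.72 for miR-455-3p with miR-676-3p to 0.51 for miR-340-3p with miR-676-5p. The arms of a hairpin were no closer than that: miR-340-5p with miR-340-3p gave -0.34 and miR-455-3p with miR-455-5p gave 0.25.

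miR-455 is best known from cartilage, so miRNAs known for cartilage and matrix genes were set beside it. Of the 12 listed, 10 were tested: 1 rose over the chase (miR-29c-3p, which targets collagen messengers, 0.11 log2 units per h, adjusted p = 0.0211, edgeR) and 2 fell (miR-140-3p, a cartilage miRNA, -0.04, adjusted p = 0.0360; miR-214-3p, -0.11, adjusted p = 0.0311). With the experiment as a block 4 rose and 3 fell. Of all 414 miRNAs, 21 rose and 30 fell (12.3% called), or 63 and 69 with the block (31.9%). The list had a median slope of 0.01, against -0.0037 over all 414.

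The members also share that they lie in introns of coding genes. Of the 528 counted miRNAs placed in an intron of a coding gene on the same strand, 144 were tested: 5 rose and 6 fell over the chase, or 19 and 12 with the block, with a median slope of 0.0034, beside the 12.3% of all 414 called, or 31.9% with the block. At 12 h against 0 h, 1 of these 144 rose and 0 fell, or 10 and 9 with the block, beside 1.21% of all 414, or 21.7% with the block. miR-455-5p is among the 5 that rose.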

How the data were processed

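Small RNA was sequenced from 24 libraries of 3T9 cells (21 labelled, 3 controls). The deposited values are raw read counts, whole numbers per library, for 7129 entries that split 1221 mature names into 20 isoform classes; 1 duplicated entry was dropped. The submitters' processing notes name CASAVA 1.8.0, while aligner, build, annotation and the treatment of reads that match several miRNAs were not given in the sources used here. The counts of 8 classes were summed per miRNA as the deposited table allows (non-templated totals equalled the sum by base in 25632 of 25632 cells), and CPM was computed from these sums.

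The members and lists were chosen with earlier results of these data known. They were always named, as were the 3 miRNAs most like each member, miRNAs with a member's seed, listed miRNAs and the 3 lowest in pulsed over untreated total RNA at a mean of at least 50 CPM. edgeR 4.0.16 (R 4.3.3) fitted the counts with TMM scaling, the quasi-likelihood test and Benjamini-Hochberg adjustment over the 414 miRNAs past filterByExpr (minimum count 10; all 6 members passed), as a slope over chase hours or with 1 coefficient per time point; calls are adjusted p under 0.05. The fit was first run on simulated counts drawn without an experiment effect, unlike these data, so that run cannot vouch for the unblocked fit here. Arm ratios used 1 CPM as pseudocount and 100000 permutations within experiments. The total RNA contrast (1 library each) got exact 95% binomial intervals (scipy 1.17.1) and no test.

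Experiment numbers pair libraries by design text (independent replicates) and by a check: deviations from time point means correlated at 0.311 to 0.738 within an experiment (63 pairs) and at -0.647 to 0.227 between experiments (126 pairs), and 21 of 21 libraries were closest to their own experiment. The experiment block was therefore tried throughout. Other alternatives were DESeq2 1.42.0, limma-voom 3.58.1, other scalings and filters, canonical entries alone and left-out libraries, experiments or times. Depth per library limits precision to 0.380 to 2.65 CPM per 3 counts in labelled RNA. Names that share reads with near-identical copies are uncertain.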

Additional observations from a re-analysis of the deposited data

How the results depend on the processing

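Counts of miRNAs moved most with the design: 51 passed for the slope over the chase, against 132 with the replicate block, 17 without all 0 h libraries, 22 without all 12 h libraries and 15 to 77 with single libraries or experiments left out. For 12 h against 0 h, 5 passed, against 90 with the replicate block, 15 with DESeq2, 8 with upper-quartile scaling, 14 with library totals only, 10 with no filter on low counts and 0 to 14 with a library or experiment left out. In total RNA, 17 miRNAs were at least 2-fold lower in pulsed cells at a mean of 5 CPM, against 7 at 50 CPM and 27 at 1 CPM. Library totals moved the median of all 12 h against 0 h differences to -0.29, from -0.05 with TMM.

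The slope of miR-455-5p kept its sign in all 34 alternatives and lost its call in 23 of them: with limma-voom (adjusted p = 0.0537), library totals only (0.112), no filter (0.160), canonical entries alone (0.130), without all 0 h (0.175) or all 12 h libraries (0.0887), and in 17 of 24 that left out a library or experiment (slope 0.07 to 0.17, adjusted p 0.0262 to 0.213). The replicate block alone changed no member's call; with it and a left-out experiment, chosen after seeing the data, the adjusted p of miR-455-5p was 0.00418 to 0.0734, and with it and library totals only, also added later, miR-340-5p gained a call (slope -0.07, adjusted p = 0.0383) and miR-455-5p kept its own (0.0250). Leaving out a library or experiment gave miR-340-5p slopes of -0.10 to -0.01 and 12 h against 0 h differences of -1.41 to 0.15, the lowest of each without experiment 2; with the block and without the 12 h library of experiment 2 (also added later), the difference was -1.34 (adjusted p = 0.0109).

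Slopes near 0 changed sign. miR-676-3p was at -0.0086 with library totals only, -0.0012 with canonical entries alone and -0.0053 to 0.0285 with left-out libraries. miR-676-5p was at 0.0028 with upper-quartile scaling, 0.0269 without all 12 h libraries and -0.0263 to 0.0081 with left-out libraries. miR-455-3p was at -0.0029 without all 0 h libraries and -0.0104 to 0.0441 with left-out libraries. For 12 h against 0 h, miR-676-3p was at -0.030 with library totals only and -0.021 to 0.57 with left-out libraries, and miR-455-3p at -0.20 with canonical entries alone and -0.28 to 0.79 with left-out libraries. The arm ratio slope ranged from -0.0042 to 0.15 for miR-340, from -0.18 to -0.0224 for miR-455 (adjusted p = 0.0387 without experiment 3) and from -0.033 to -0.024 for miR-676 with an experiment left out. The cause was not tested for any of these. Counts of 1 to 51 for miR-340-3p and miR-455-5p in labelled libraries limit what their slopes can show.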

Other observations

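A templated 5′ extension moves the seed, and among the members miR-455-3p had the largest share of it. In labelled RNA it made up 2.34% ± 2.49 of miR-455-3p counts at 12 h and 8.28% ± 7.10 at 0 h (SD, n = 3 each; 3.06 to 16.4% at 0 h). It was 0 of 10 counts in pulsed total RNA (exact 95% interval up to 30.8%) and 10 of 71 in untreated total RNA (14.1%, interval 6.97 to 24.4%). The intervals of the 2 total RNA libraries overlap, and the spread at 0 h is about as large as the mean. The mean at 0 h lay inside the interval of untreated total RNA. The mean at 12 h and the share summed over the labelled libraries, 4.87%, lay below it. A difference between labelled and total RNA was not tested.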
